A study of Mus musculus with 16 samples.

Results

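The genes with which cytotoxic lymphocytes kill were followed in RNA-seq of mouse mammary tumors treated with a TGF beta inhibitor, radiation and anti-PD-L1. They were 10 genes taken by symbol from the 27179 Entrez genes of the deposited count table: the granule proteases Gzma, Gzmb and Gzmk, the pore protein Prf1, the granule membrane protein Nkg7, the cytokine Ifng, the death ligand Fasl, and the receptors Klrk1, Klrc1 and Ncr1. All 10 were present in the table, and 7 passed the filter on low counts, so that they could be tested. Gzmk, Ifng and Fasl did not pass it, and their raw counts are given instead.

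The tumors were orthotopic transplants of the Trp53 null mammary tumor family F into BALB/cJ females aged 8 to 10 weeks. Treatment began at a tumor volume of 65 to 100 mm3, and the tumors were taken 7 days after treatment. There were 5 groups of 3 tumors, and all 15 tumors carried the Trp53 null genotype. The Sham group received control immunoglobulin G at 25 mg/kg. Mice of the TGFbi group were given IPW-5371, a compound that blocks TGF beta signaling, at 20 mg/kg each day, and their treatment label also names the control. Mice of the RT group had the tumor irradiated with a single dose of 10 Gy. The TGFbi+RT group received the same inhibitor and radiation, and the TGFbi+RT+anti-PD-L1 group, called the triple group here, was also given anti-PD-L1, which blocks a ligand that restrains T cells, at 10 mg/kg each week. Whether the irradiated groups also received the control immunoglobulin is not stated. All tumors descend from the 1 family, the labels do not say how many donor tumors were used, and p-values measure the spread between the 3 tumors of a group.

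Natural killer cells and CD8 T cells store granzymes and perforin in lytic granules and release them onto a target cell, where perforin opens the way and granzymes cut proteins inside. The same cells secrete interferon gamma and carry Fas ligand on their surface. Killing is started or restrained by receptors such as NKG2D (Klrk1), NKG2A (Klrc1) and NKp46 (Ncr1), and TGF beta is known to restrain the expression of several of these genes. In a bulk tumor, fewer cells of a type and less RNA per cell cannot be told apart.

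Since the members varied together across tumors, the 250 bases before the start of each gene were read from RefSeq (GRCm38.p6, all 10 genes matched) and searched on both strands for motifs of factors known in cytotoxic lymphocytes. The RUNX motif, TGTGGT, was present in the windows of 7 of the 10 genes (Gzma, Gzmb, Prf1, Nkg7, Klrk1, Klrc1 and Ncr1), against 14.0% of 32817 windows of the same length. The T-box motif AGGTGTNA was present in 1 window (Nkg7; 2.68% of all windows), the interferon-activated GAS motif TTCNNNGAA in 2 (Nkg7 and Ifng; 7.01%), the AP-1 motif TGANTCA in 1 (Gzmb; 6.75%) and the CRE motif TGACGTCA in 0 (1.55%). No match overlapped another. The median GC content was 46.6% over the 10 windows and 52.4% over all windows. A match is a description of the letters and not evidence of binding. The 5 windows below belong to the genes that held most of the granule signal and to the receptor Ncr1, and are written 5′ to 3′ on the strand of the gene with the matches in capitals, ACCACA being the RUNX motif on the other strand. They lie at chr13:113100982-113101231 (Gzma, minus strand), chr14:56262335-56262584 (Gzmb, minus), chr10:61297586-61297835 (Prf1, plus), chr7:43436888-43437137 (Nkg7, plus) and chr7:4337465-4337714 (Ncr1, plus).
Gzma: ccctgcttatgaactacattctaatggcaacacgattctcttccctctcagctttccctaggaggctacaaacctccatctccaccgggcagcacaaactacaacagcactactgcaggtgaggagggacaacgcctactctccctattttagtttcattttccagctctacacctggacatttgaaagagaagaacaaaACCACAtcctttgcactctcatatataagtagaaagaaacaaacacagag
Gzmb: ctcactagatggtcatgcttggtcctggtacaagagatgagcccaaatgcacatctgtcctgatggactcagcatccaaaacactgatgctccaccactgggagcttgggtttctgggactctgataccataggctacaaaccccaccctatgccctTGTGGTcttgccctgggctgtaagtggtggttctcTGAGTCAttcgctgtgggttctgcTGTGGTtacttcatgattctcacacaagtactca
Prf1: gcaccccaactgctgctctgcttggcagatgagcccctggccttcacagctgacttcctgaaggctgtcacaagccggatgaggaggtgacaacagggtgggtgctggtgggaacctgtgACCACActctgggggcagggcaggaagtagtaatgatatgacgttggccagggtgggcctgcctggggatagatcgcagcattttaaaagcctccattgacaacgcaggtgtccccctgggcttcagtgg
Nkg7: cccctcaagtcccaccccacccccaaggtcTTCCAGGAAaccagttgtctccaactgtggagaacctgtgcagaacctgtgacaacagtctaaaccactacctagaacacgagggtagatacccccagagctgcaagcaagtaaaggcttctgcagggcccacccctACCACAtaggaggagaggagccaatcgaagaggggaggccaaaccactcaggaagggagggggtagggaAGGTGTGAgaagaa
Ncr1: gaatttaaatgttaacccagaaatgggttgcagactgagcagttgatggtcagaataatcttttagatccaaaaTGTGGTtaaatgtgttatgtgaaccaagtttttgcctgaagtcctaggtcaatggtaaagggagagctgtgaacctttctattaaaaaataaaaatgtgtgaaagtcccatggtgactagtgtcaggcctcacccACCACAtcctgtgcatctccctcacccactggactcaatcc

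Positions are counted back from the RefSeq start of each gene. For some genes, among them Gzmb and Ncr1, this start lies upstream of the gene positions in the deposited annotation that are given below. The RUNX match of Gzma lay at bases -50 to -45, and those of Gzmb lay at -93 to -88 and -34 to -29, on either side of the AP-1 match at -58 to -52. The RUNX match of Prf1 lay at -130 to -125, and those of Ncr1 lay at -176 to -171 and -41 to -36. The window of Nkg7 held 3 kinds of match, with GAS at -220 to -212, RUNX at -83 to -78 and the T-box motif at -14 to -7.

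**Figure D1:**
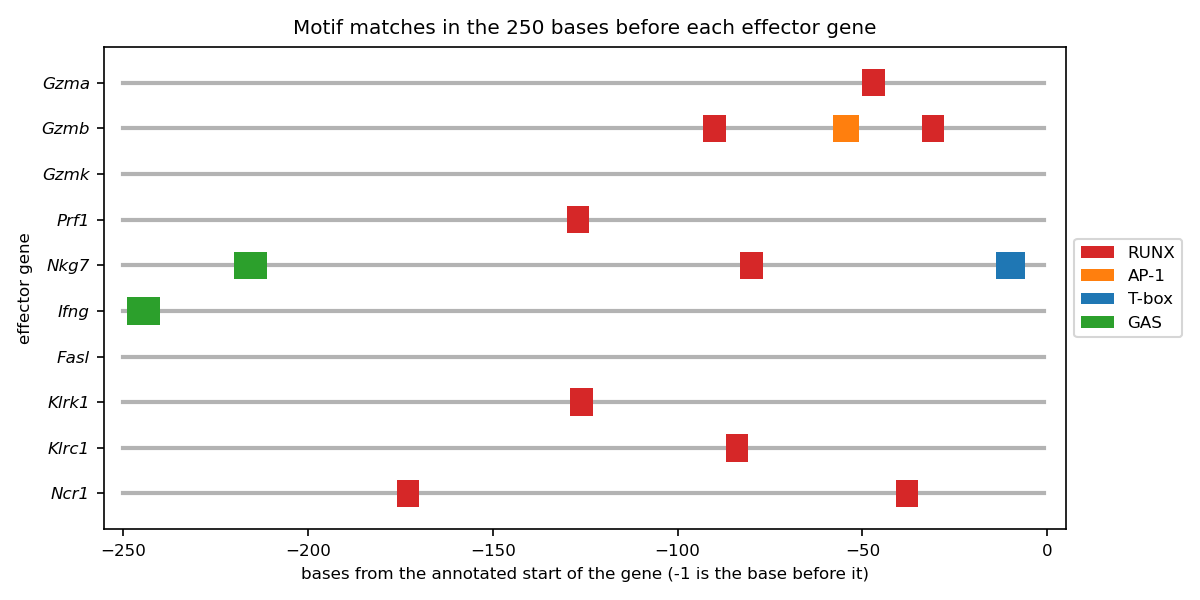
Position of each motif match (colour) in the 250 bases before the RefSeq start of the 10 effector genes, in bases from the start, with the block width equal to the motif length. The lines of 7 genes carry a RUNX match, and the lines of Gzmk and Fasl carry no match of any motif searched.

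Total counts ranged from 11002869 to 17184023 per tumor (median 13302488), so that 1 count was worth 0.0596 to 0.0879 CPM (the count scaled to a common library size) and a count of 0 allowed up to 0.179 to 0.264 CPM (3 counts). These limits cover counting error only. The epithelial genes Epcam (1331 to 2887 counts) and Krt5 (4064 to 12699) were high in all tumors, whose tissue label is mammary carcinoma. Trp53 was counted at 63.8 to 109 CPM in every tumor; which part of the gene is missing was not given in the sources used here, so this does not check the genotype. On the first principal component of all genes (46.8% of the variance), TGFbi+RT replicate 3 and triple replicate 2 lay at 102 and 114, apart from the other tumors at -88.5 to 33.1. Library names carry the code A2301 for Sham, TGFbi, TGFbi+RT and triple replicate 1, and A2304 for RT and triple replicates 2 and 3. The meaning of the code is not stated. In RT against Sham and in TGFbi+RT against RT it cannot be told apart from the treatment. The test of whether the inhibitor's effect differed with radiation also includes RT. Only the triple group holds both codes, so a code term in a fit rests on triple replicate 1 against replicates 2 and 3. Triple replicate 2 is 1 of the 2 tumors set apart above. TGFbi replicate 3 and TGFbi+RT replicate 3 are named as resubmitted libraries.

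The effector genes had few counts in Sham tumors and reached high levels in 2 of the 15 tumors. Summed over the 10 genes, the counts were 12, 3 and 3 in Sham replicates 1 to 3, 18, 17 and 40 in TGFbi, and 56, 10 and 4 in RT. They were 143, 89 and 2967 in TGFbi+RT and 92, 2082 and 35 in the triple group. TGFbi+RT replicate 3 and triple replicate 2 thus held 5049 of the 5571 counts, or 90.6%, with a share per gene from 68.2% (Ifng) to 94.5% (Gzma). The number of the 10 genes with any count was 2 to 5 in Sham tumors, 7 in each TGFbi tumor, 4 to 9 in RT, 10 in each TGFbi+RT tumor and 8 to 10 in the triple group. In the same order, the summed levels were 0.194 to 0.715, 1.35 to 3.23, 0.281 to 3.49, 7 to 253 and 2.95 to 142 CPM, so each of the 3 TGFbi+RT tumors lay above every Sham, TGFbi and RT tumor.

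**Figure D2:**
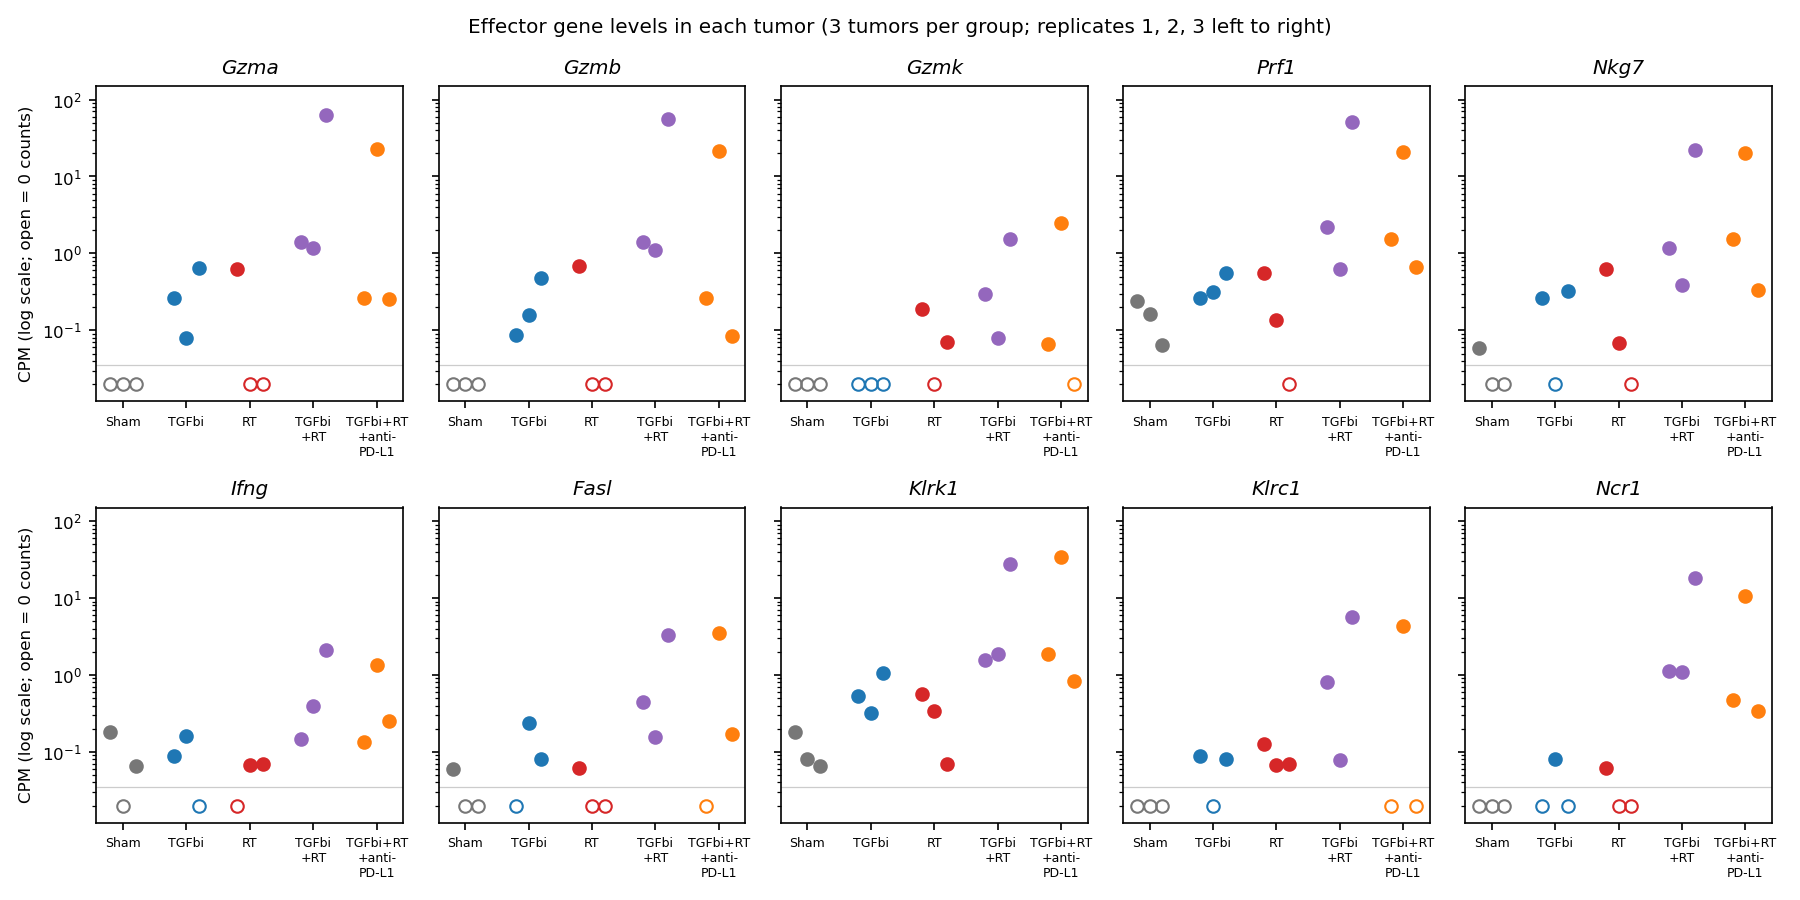
CPM (log scale) of each of the 10 effector genes in each of the 15 tumors, grouped by treatment with replicates 1, 2 and 3 from left to right; open circles under the line mark tumors with 0 counts. For every gene the highest points are TGFbi+RT replicate 3 and the second tumor of the triple group.

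Gzma encodes granzyme A, a tryptase-like protease of the granules (GRCm38 chr13:113093827-113100981, minus strand, Entrez 14938; gene positions are those of the deposited annotation). It had 0 counts in all 3 Sham tumors, 3, 1 and 8 in TGFbi, 10, 0 and 0 in RT, 19, 15 and 751 in TGFbi+RT, and 4, 338 and 3 in the triple group. All 3 TGFbi, all 3 TGFbi+RT and all 3 triple tumors therefore lay above Sham, whereas RT overlapped it. In TGFbi this rested on as little as 1 count, a level that 0 counts in Sham also allow. The mean level was 22.2 ± 36.2 CPM (SD, n = 3) in TGFbi+RT and 7.84 ± 13.1 in the triple group, so the SD exceeded the mean in both. Against the 3 counts that Sham tumors at 0 allow over the group, TGFbi+RT was at least 307-fold higher, the triple group at least 123-fold, TGFbi at least 4.89-fold and RT at least 3.29-fold.

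Gzmb encodes granzyme B, which starts apoptosis by cutting caspases (chr14:56258856-56262260, minus strand, Entrez 14939). Its counts were 0 in all 3 Sham tumors, 1, 2 and 6 in TGFbi, 11, 0 and 0 in RT, 19, 14 and 659 in TGFbi+RT, and 4, 311 and 1 in the triple group. The order of the tumors was close to that of Gzma, with a Spearman correlation between the genes of 0.986 over the 15 tumors and 0.978 over the 13 without the 2 high tumors. This was the closest of the 45 pairs of members, whose median was 0.755 and 0.622; the points share their libraries. TGFbi+RT (19.5 ± 31.7 CPM) was at least 270-fold above Sham and the triple group (7.17 ± 12.1 CPM) at least 113-fold.

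Gzmk encodes granzyme K, a protease found in memory-like and less differentiated effector T cells (chr13:113171874-113180897, minus strand). It was the rarest granzyme of the 3, with 65 counts in all and 0 in the 6 Sham and TGFbi tumors. The counts were 3, 0 and 1 in RT, 4, 1 and 18 in TGFbi+RT, and 1, 37 and 0 in the triple group. Triple replicate 2 was higher than TGFbi+RT replicate 3 (2.52 against 1.53 CPM), the opposite order to Gzma (338 against 751 counts).

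Prf1 encodes perforin (chr10:61297836-61304263, plus strand, Entrez 18646). It had 4, 2 and 1 counts in Sham, 3, 4 and 7 in TGFbi, 9, 2 and 0 in RT, 30, 8 and 607 in TGFbi+RT, and 23, 309 and 8 in the triple group. It was counted in 14 of the 15 tumors, and only RT replicate 3 had none. The mean was 0.156 ± 0.0871 CPM in Sham, 18.2 ± 29.0 in TGFbi+RT and 7.74 ± 11.5 in the triple group (SD, n = 3). The log2 fold change from Sham was 6.78 ± 1.87 (SE) in TGFbi+RT, with an adjusted p of 0.207 by edgeR, and 5.55 ± 1.82 in the triple group, with an adjusted p of 0.223.

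Nkg7 encodes a granule membrane protein needed for full release of granules (chr7:43437138-43438246, plus strand, Entrez 72310). The counts were 1, 0 and 0 in Sham, 3, 0 and 4 in TGFbi, 10, 1 and 0 in RT, 16, 5 and 260 in TGFbi+RT, and 23, 295 and 4 in the triple group. Unlike Gzma, it was about as high in triple replicate 2 (20.1 CPM) as in TGFbi+RT replicate 3 (22.1 CPM). The means were 7.91 ± 12.3 and 7.31 ± 11.1 CPM in the TGFbi+RT and triple groups against 0.0199 ± 0.0344 in Sham.

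The secreted and surface-bound effectors were rare. Ifng, the gene of interferon gamma, lies at chr10:118441047-118445892 (plus strand) and had 66 counts over the 15 tumors: 3, 0 and 1 in Sham, 1, 2 and 0 in TGFbi, 0, 1 and 1 in RT, 2, 5 and 25 in TGFbi+RT, and 2, 20 and 3 in the triple group. Fasl, which triggers the death receptor Fas, lies at chr1:161780691-161788495 (minus strand) and had 106 counts: 1, 0 and 0 in Sham, 0, 3 and 1 in TGFbi, 1, 0 and 0 in RT, 6, 2 and 39 in TGFbi+RT, and 0, 51 and 2 in the triple group. Both genes were highest in the same 2 tumors as the granule genes, with Ifng at 2.13 and 1.36 CPM and Fasl at 3.32 and 3.47 CPM in TGFbi+RT replicate 3 and triple replicate 2. For Ifng, Sham replicate 1 (0.179 CPM) lay above TGFbi+RT replicate 1 (0.149 CPM), so the groups overlapped. With no filter on low counts, Ifng, Fasl and Gzmk had fitted differences from Sham to TGFbi+RT with adjusted p of 0.311, 0.278 and 0.344 by edgeR.

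Klrk1 encodes NKG2D, an activating receptor of natural killer cells and CD8 T cells for stress ligands (chr6:129610321-129623841, minus strand, Entrez 27007). It was the only member counted in all 15 tumors, at 3, 1 and 1 counts in Sham, 6, 4 and 13 in TGFbi, 9, 5 and 1 in RT, 21, 24 and 326 in TGFbi+RT, and 28, 500 and 10 in the triple group. Every TGFbi, TGFbi+RT and triple tumor lay above every Sham tumor. The mean was 0.108 ± 0.0615 CPM in Sham, 0.632 ± 0.377 in TGFbi, 0.323 ± 0.246 in RT, 10.4 ± 15.0 in TGFbi+RT and 12.2 ± 18.9 in the triple group. The log2 fold change from Sham was 6.43 ± 1.72 in TGFbi+RT (adjusted p = 0.207 by edgeR) and 6.67 ± 1.72 in the triple group (adjusted p = 0.194).

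Klrc1 encodes NKG2A, the inhibitory partner of CD94 that reads the ligand Qa-1 (chr6:129674859-129678910, minus strand). Its counts were 0 in all 3 Sham tumors, 1, 0 and 1 in TGFbi, 2, 1 and 1 in RT, 11, 1 and 66 in TGFbi+RT, and 0, 63 and 0 in the triple group. Counts of Klrc1 are uncertain, since the near-identical genes Klrc2 (17 counts in all) and Klrc3 (51 counts) can share reads with it. Ncr1, the gene of the natural killer receptor NKp46 (chr7:4337724-4345164, plus strand), had 0 counts in all 3 Sham tumors, 0, 1 and 0 in TGFbi, 1, 0 and 0 in RT, 15, 14 and 216 in TGFbi+RT, and 7, 158 and 4 in the triple group. Ncr1 thus had a single count in each of the TGFbi and RT groups and at least 4 counts in every tumor that received the inhibitor with radiation. TGFbi+RT was at least 95.7-fold above Sham for Ncr1 and at least 30.5-fold for Klrc1, and the triple group at least 60.2-fold and 22.4-fold.

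The 7 tested members were compared between groups with edgeR's quasi-likelihood test on all 15 tumors, adjusted over the 16017 genes tested. The filter kept a member mainly through the groups in which it is high, so the counts below do not speak for all 10. In TGFbi+RT against Sham, all 3 tumors lay above all 3 Sham tumors for 7 of 7 members, against 10.7% of all genes tested. For Klrc1 this rested on 1 count in TGFbi+RT replicate 2 against 0 in each Sham tumor. All 7 were higher at an unadjusted p under 0.05 (9.76% of all genes), with log2 fold changes whose median was 6.78 when members at 0 in Sham are set to their bound, against -0.01 over all genes. No member passed the adjusted threshold of 0.05 (adjusted p 0.207 to 0.234 by edgeR), and 0% of all genes did. DESeq2, run as an alternative, called 3 members (Prf1, Nkg7 and Klrc1) and 3% of all genes, and gave no p for the other 4 members. By limma-voom, another alternative, 2 of 7 members had an unadjusted p under 0.05 (12.6% of all genes in either direction). Without TGFbi+RT replicate 3 alone, 5 of 7 had an unadjusted p under 0.05 (7.8% of all genes in either direction; adjusted p 0.588 to 0.685). Without the 2 high tumors, 6 members could be tested, and all 6 were higher at an unadjusted p under 0.05 (9.06% of all genes in either direction), with adjusted p of 0.384 to 0.447. In that comparison Klrk1 differed by 3.84 ± 0.79 on the log2 scale and Prf1 by 3.11 ± 0.99, both with 2 TGFbi+RT tumors against 3 Sham tumors.

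In the triple group against Sham, 6 of 7 members did not overlap (9.4% of all genes), Klrc1 being the exception with 0 counts in triple replicates 1 and 3. For Gzmb this rested on 1 count in triple replicate 3 against 0 in each Sham tumor. All 7 were higher at an unadjusted p under 0.05 (9.96% of all genes), and 0 passed the adjusted threshold (adjusted p 0.194 to 0.263 by edgeR; 0% of all genes). Without the 2 high tumors, 5 of 6 members were higher at an unadjusted p under 0.05 (8.24% of all genes in either direction), with adjusted p of 0.341 to 0.662, and Klrk1 differed by 3.50 ± 0.80 and Prf1 by 2.74 ± 1.00 on the log2 scale. Without triple replicate 2 alone, 3 of 7 had an unadjusted p under 0.05 (6.99% of all genes; adjusted p 0.648 to 1). DESeq2 called Prf1 and Nkg7 and 3.86% of all genes. By limma-voom, 1 of 7 members had an unadjusted p under 0.05 (13% of all genes in either direction). With the library code as a term, triple replicate 1 alone sets the triple value. Prf1 then differed by 3.22 ± 2.15 and Klrk1 by 3.96 ± 1.89 on the log2 scale.

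TGFbi alone and radiation alone gave smaller values. In TGFbi against Sham, the 3 tumors lay above all Sham tumors for 4 of 7 members (Gzma, Gzmb, Prf1 and Klrk1), against 7.42% of all genes. For Gzma and Gzmb the lowest TGFbi tumor had 1 count (0.0797 and 0.0879 CPM), a level that 0 counts in Sham also allow. For Prf1 TGFbi replicate 1 had 3 counts and Sham replicate 1 had 4, at 0.264 and 0.238 CPM after scaling. No member had an unadjusted p under 0.05 (3.5% of all genes did and were higher). The adjusted p was 0.755 to 0.914 by edgeR, and 0.00624% of all genes were called. In a fit without the 2 high tumors, which belong to neither group, 3 of 6 members had an unadjusted p under 0.05 (10.6% of all genes in either direction), with Klrk1 at 2.41 ± 0.78 on the log2 scale and an adjusted p of 0.325. In TGFbi against Sham with all 15 tumors fitted, 4 of 5 tested mast cell genes were higher at an unadjusted p under 0.05 (3.5% of all genes). Their part in the Gzmb counts was not tested. Mitochondrial genes took 3.03 to 6.45% of the counts in TGFbi and 2.89 to 5.27% in TGFbi+RT, above the 2.24 to 2.59% of Sham, and 2.57 to 2.98% in the triple group. TGFbi replicate 3, which had the most effector counts of its group, also had 6.3% of its counts on the small nuclear RNA Rn7sk, against 1.53 to 2.39% in the other tumors. The part of both in the effector levels was not tested. In RT against Sham, 1 of 7 members did not overlap (Klrc1, at 1 or 2 counts per tumor; 5.77% of all genes), and no member had an unadjusted p under 0.05 (1.79% of all genes did and were higher). The adjusted p was 0.999 for all 7, with 0% of all genes called. With the library code as a term the fitted values of Prf1 and Klrk1 turned from 0.58 and 1.48 to -2.24 ± 3.09 and -1.74 ± 2.80 on the log2 scale. That term is set only within the triple group. These values thus carry the contrast of triple replicate 1 with replicates 2 and 3 into RT against Sham, and correct for no code effect seen there. RT replicate 1 held most of the effector counts of its group, 56 against 10 and 4.

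The inhibitor added to radiation, TGFbi+RT against RT, gave 5 of 7 members without overlap (7.66% of all genes) and all 7 higher at an unadjusted p under 0.05 (5.83%), their median log2 fold change being 6.2, with adjusted p of 0.453 to 0.503. Prf1 was at 18.2 ± 29.0 against 0.232 ± 0.293 CPM, a log2 fold change of 6.20 ± 1.79. With the library code as a term this was 9.02 ± 3.32, the median 11.3 and the adjusted p 0.426 for every member by edgeR. All RT tumors carry A2304 and all TGFbi+RT tumors A2301, so here the code cannot be told apart from the inhibitor. The code term came from triple replicate 1 against replicates 2 and 3. Radiation added to the inhibitor, TGFbi+RT against TGFbi, gave 6 of 7 without overlap (6.37%) and all 7 higher at an unadjusted p under 0.05 (4.35%), with a median of 5.53 and an adjusted p of 0.789 for each. Without TGFbi+RT replicate 3, 1 of 7 had an unadjusted p under 0.05 in either comparison (5.57% and 2.91% of all genes), and the medians were 2.38 and 1.96. Leaving out TGFbi replicate 1 or 2, when all 10 members passed the filter, gave 4 of 10 in the latter (6.46% and 3.46% of all genes). In both comparisons 0 members and 0% of all genes passed the adjusted threshold by edgeR, and DESeq2 called Prf1 and 0.393% of all genes in the former. Without both high tumors, 3 of 6 members and 1 of 6 members had an unadjusted p under 0.05 (6.55% and 3.67% of all genes), with medians of 2.47 and 1.96. The test of whether the inhibitor's effect differed with radiation gave 4.95 ± 2.81 for Prf1 and 2.53 ± 2.57 for Klrk1 on the log2 scale, an unadjusted p under 0.05 for 0 members (2.52% of all genes were higher at that p) and an adjusted p of 1 for every member. The comparisons against Sham share the same 3 control tumors. In the F test over all 5 groups, all 7 members had an unadjusted p under 0.05 (10.8% of all genes) and adjusted p of 0.289 to 0.396 by edgeR, with 0% of all genes called; DESeq2 called 2 members, Prf1 and Nkg7, and 4.1% of all genes.

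The effector genes did not differ between the triple group and TGFbi+RT beyond the spread between tumors. In the triple group against TGFbi+RT, 0 of 7 members were without overlap above (2.12% of all genes), 6 of 7 fitted values were below 0, and the median was -0.83 on the log2 scale. No member had an unadjusted p under 0.05 (0.681% of all genes did and were higher), the adjusted p was 1 for every member, and 0% of all genes were called. The value rested on which high tumor was present. Without triple replicate 2 the median was -4.04, and 6 of 7 members had an unadjusted p under 0.05 (2.82% of all genes; adjusted p 0.999). Without TGFbi+RT replicate 3 it was 2.51, and 1 of 7 had an unadjusted p under 0.05 (4.47% of all genes). With the library code as a term it was -3.85, a value that triple replicate 1 alone sets against TGFbi+RT. For Klrk1 the difference was 0.24 ± 1.21 and for Gzma -1.49 ± 1.74, so neither the direction nor a several-fold difference either way could be told from these tumors.

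The 2 high tumors differed in the mix of effector genes. Per length of exon, Gzma led in both, at 72.8 CPM per kb in TGFbi+RT replicate 3 and 26.2 in triple replicate 2. Gzmb came next in the former (39.6, with Nkg7 at 27.2 and Prf1 at 25.2), whereas Nkg7 came next in the latter (24.7, with Gzmb at 14.9 and Klrk1 at 10.3). Of the counts on the 10 genes, Gzma took 25.3% in TGFbi+RT replicate 3 (95% exact Clopper-Pearson interval 23.8 to 26.9%) and 16.2% in triple replicate 2 (14.7 to 17.9%). Klrk1 took 11.0% (9.88 to 12.2%) and 24.0% (22.2 to 25.9%). Ncr1 took nearly the same share in both, 7.28% (6.37 to 8.27%) and 7.59% (6.49 to 8.81%). The intervals cover counting error in 1 library each and are no test between treatments. Both tumors shared the lower end of the order, with Gzmk, Ifng and Fasl between 1.13 and 3.18 CPM per kb.

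**Figure D3:**
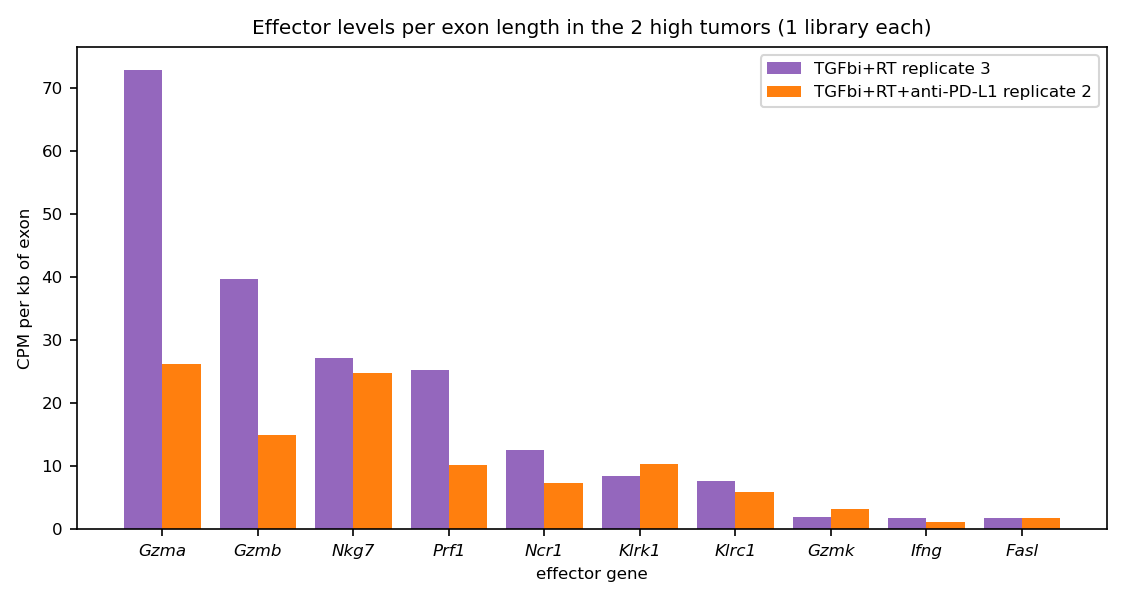
CPM per kb of exon (linear axis from 0) for the 10 effector genes in the 2 tumors with the highest levels, 1 library per bar and no error bar. Gzma, Gzmb and Prf1 are higher in TGFbi+RT replicate 3, and Klrk1 and Gzmk are higher in triple replicate 2.

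Genes that mark the cells able to carry these effectors were counted beside them. Cd3e, a subunit of the T cell receptor complex, had 1, 0 and 0 counts in Sham, 6, 3 and 5 in TGFbi, 27, 1 and 0 in RT, 12, 6 and 71 in TGFbi+RT, and 138, 328 and 3 in the triple group. Cd8a, the coreceptor of CD8 T cells, reached 25 counts in TGFbi+RT replicate 3, 101 in triple replicate 1 and 196 in triple replicate 2. Klrd1 (CD94, the partner of NKG2A) reached 114, 10 and 110 counts, and Eomes, a T-box factor of natural killer and CD8 T cells, 117, 25 and 141 in the same 3 tumors. Klrg1, a receptor of mature natural killer cells, reached 107, 2 and 92. Of the 11 tested T cell genes, 6 were higher in TGFbi+RT and 11 in the triple group at an unadjusted p under 0.05 against Sham (9.76% and 9.96% of all genes). Cd3d and Cd3g had 0 counts in all 3 Sham tumors. The T cell genes and the effector genes thus ranked the tumors differently, since triple replicate 1 had the second highest Cd3e and only 92 effector counts.

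The ratio of Gzma to Cd3e counts was 10.6 in TGFbi+RT replicate 3 (95% exact interval 8.28 to 13.7), 1.03 in triple replicate 2 (0.883 to 1.2) and 0.029 in triple replicate 1 (0.00779 to 0.0759). It was 0.37 in RT replicate 1 (0.16 to 0.79), where Cd3e was the next highest at 27 counts. For Ncr1, which T cells largely lack, the ratios were 3.04 (2.32 to 4.04), 0.482 (0.396 to 0.584) and 0.0507 (0.02 to 0.107) in TGFbi+RT replicate 3, triple replicate 2 and triple replicate 1. Triple replicate 1 also stood apart in genes of B cells and lymph nodes. The 6 B cell markers summed to 61.6 CPM there, with 208 counts of Cr2 and 192 of Fcer2a, and to 6.36 CPM or less in the other tumors. The 4 genes of lymph node stroma summed to 28.6 CPM, with all 4 counted, against at most 2.72 CPM elsewhere. Their part in the T cell counts of this tumor was not tested.

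**Figure D4:**
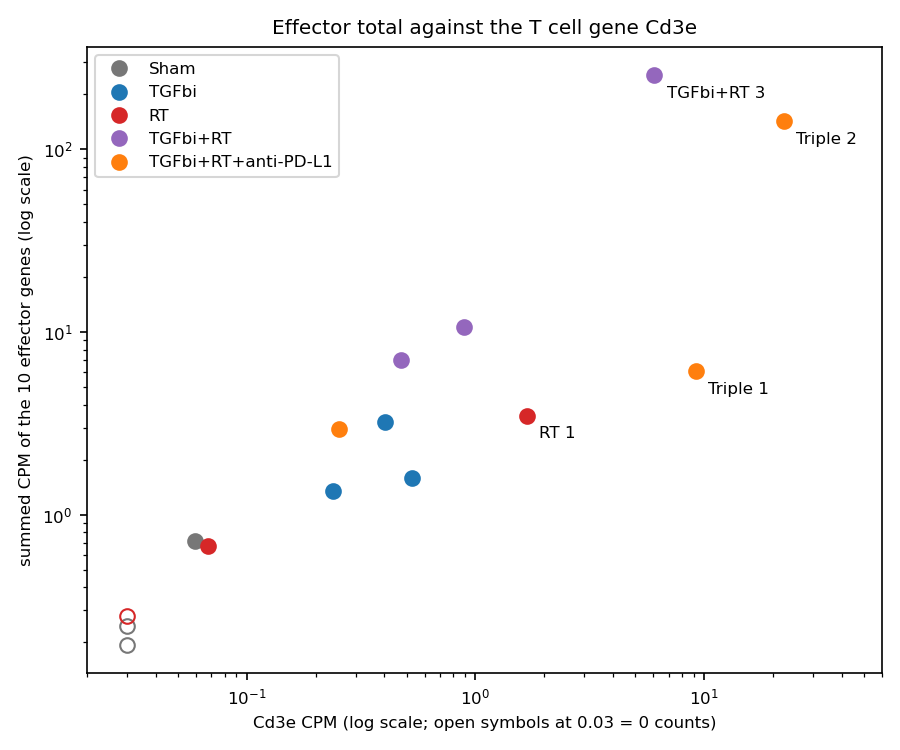
Summed CPM of the 10 effector genes against CPM of the T cell gene Cd3e in each of 15 tumors (both axes log scale; open symbols have 0 Cd3e counts and are drawn at 0.03). Triple replicate 1 lies at 9.19 CPM of Cd3e and 6.13 CPM of effectors, far below TGFbi+RT replicate 3 at 6.05 and 253 CPM.

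**Figure D5:**
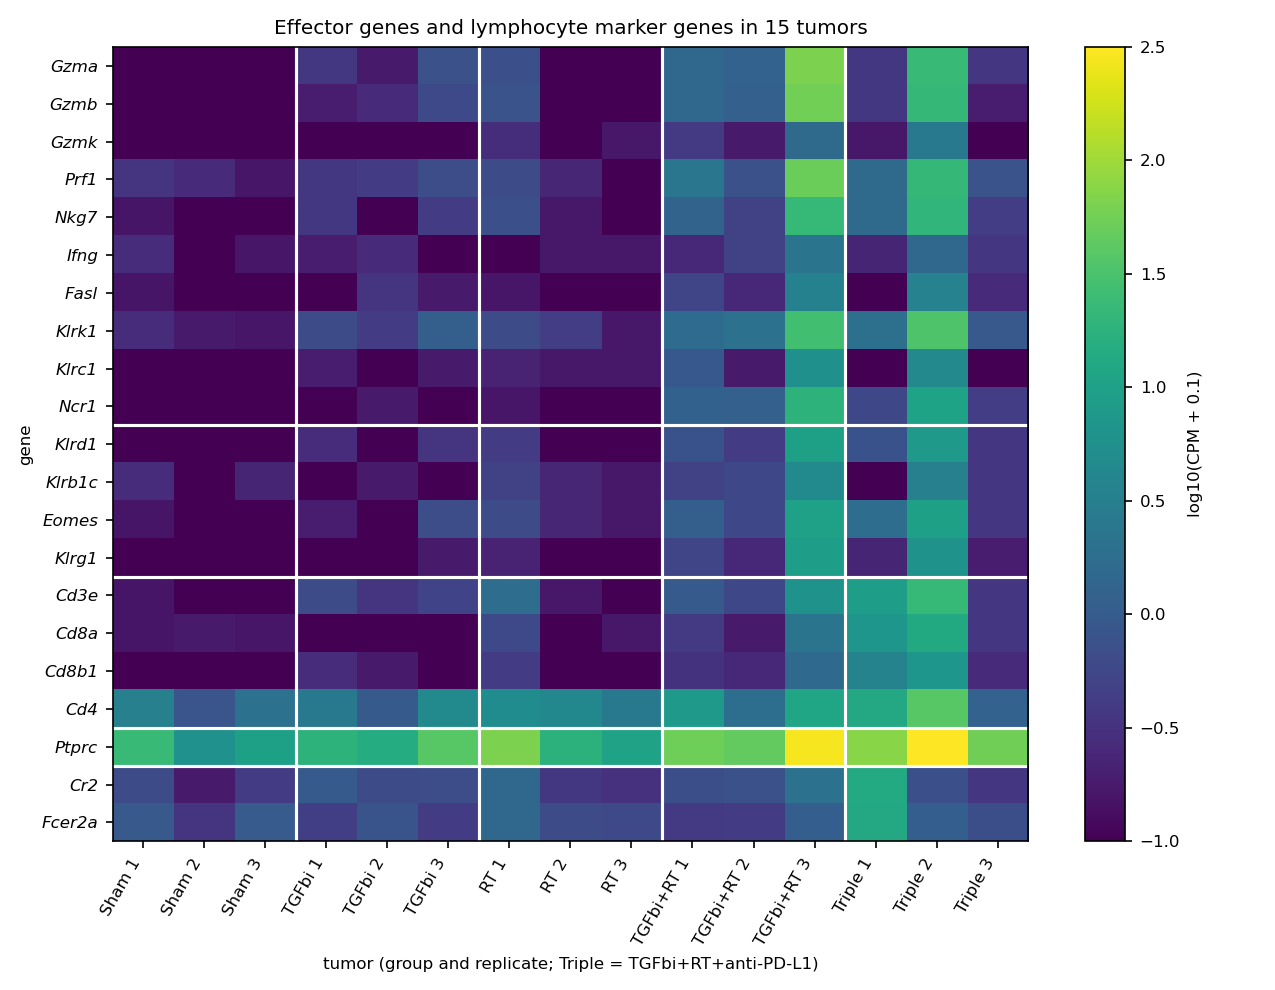
Level of the 10 effector genes, 4 natural killer cell genes, 4 T cell genes, the pan-leukocyte gene Ptprc and 2 B cell genes in each tumor, coloured by log10 of CPM plus 0.1. The columns of TGFbi+RT replicate 3 and triple replicate 2 are bright from Gzma to Ptprc, and that of triple replicate 1 is bright for T and B cell genes but not for Gzma or Gzmb.

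Markers of several other cells moved with the effectors in these 2 tumors, and their part in the effector levels was not tested. The 5 pan-leukocyte genes summed to 951 and 1300 CPM in TGFbi+RT replicate 3 and triple replicate 2 and to 45.8 to 362 CPM in the other 13 tumors. The 6 macrophage genes summed to 1660 and 2040 CPM against 105 to 959. Mast cells and plasmacytoid dendritic cells are known to express Gzmb as well. The 10 mast cell genes summed to 93.7 and 121 CPM, and to 8.59 to 127 CPM in the other tumors, but most of these counts were of Kit. The other 9 mast cell genes summed to 107 and 92 counts in the 2 high tumors, above the 1 to 70 counts of the others and the 1 to 8 counts of Sham. The 5 genes of plasmacytoid dendritic cells summed to 227 and 307 CPM against 110 to 213, with Tcf4 and Bst2 holding most counts. Bst2 had 1012 and 1769 counts against 50 to 330, whereas Siglech, the most specific of the 5, had 9 counts in TGFbi+RT replicate 3, within the 1 to 41 of the other tumors, and 89 in triple replicate 2. Kit, Tcf4, Bst2 and Siglech were singled out after their values were seen. The mast cell genes Mcpt4 and Cma1 were at 0 in all 3 Sham tumors. Over all genes, 9.76% were higher in TGFbi+RT and 9.96% in the triple group at an unadjusted p under 0.05 against Sham. At the same p, the marker genes higher in TGFbi+RT and in the triple group were 5 and 5 of 5 tested pan-leukocyte genes, 4 and 5 of 6 macrophage genes, 3 and 3 of 4 neutrophil genes, 4 and 4 of 5 mast cell genes and 3 and 4 of 5 plasmacytoid dendritic cell genes. They were 1 and 2 of 2 CD8 T cell genes, 1 and 4 of 4 CD4 and regulatory T cell genes, 1 and 1 of 2 gamma delta T cell genes, 2 and 2 of 4 natural killer and innate lymphoid cell genes (1 was lower in TGFbi+RT) and 0 and 3 of 3 B cell genes. None of these list genes passed the adjusted threshold by edgeR. No lymph node stroma gene passed the filter, and 0 of 6 epithelial genes were higher in either. The 6 epithelial genes summed to 693 and 748 CPM, within the 547 to 1630 CPM of the others. Of the Ly49 receptor genes, Klra4 and Klra8 had 0 counts in all 15 tumors and Klra7 had 26 counts, of which 12 and 13 were in the 2 high tumors. The 3 Ly49 genes were named after their values were seen.

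Other genes of the killing pathway were taken from lists chosen together with the members. Of 18 further granule and exocytosis genes, 11 were tested in TGFbi+RT against Sham, and 3 were higher and 2 lower at an unadjusted p under 0.05 (9.76% of all genes were higher). Ctsw, a protease of cytotoxic lymphocytes, was at 6.62 ± 4.11 against 1.5 ± 0.317 CPM (SD, n = 3) and Unc13d, which primes granules for fusion, at 7.04 ± 5.7 against 1.32 ± 0.615 CPM. Rab27a, which docks granules, was at 19.4 against 25.6 CPM (log2 fold change -0.40 ± 0.16). Across the lists below, 0 genes passed the adjusted threshold by edgeR, and Ctsw, Unc13d and Rab27a had adjusted p of 0.207, 0.207 and 0.267.

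Among receptors, 10 of 23 further natural killer receptor genes were tested, and 8 were higher in TGFbi+RT, with 1 lower, and 8 in the triple group at an unadjusted p under 0.05 against Sham (9.76% and 9.96% of all genes were higher). Cd226, an activating receptor for nectin-like ligands, averaged 2.26 ± 2.48 CPM in TGFbi+RT against 0.0596 ± 0.103 in Sham, and Tigit, its inhibitory counterpart, 0.91 ± 0.697 against 0.103 ± 0.0924. All 10 adaptors and proximal kinases were tested, with 9 and 10 of them higher. Hcst (DAP10), the adaptor of NKG2D, was at 1.03 ± 0.9 against 0.128 ± 0.0957 CPM, and Tyrobp (DAP12), which macrophages share, at 44.2 ± 35.4 against 14.9 ± 6.86 CPM. Of 7 tested cytokines and death ligands, 5 and 7 were higher, among them the chemokine Ccl5 (4.21 ± 4.62 and 10.5 ± 15.4 CPM against 0.324 ± 0.243). Of 11 tested cytokines and receptors that drive effectors, 10 were higher in each comparison, and Il2rb, the receptor chain for interleukins 2 and 15, averaged 34.9 ± 52.4 and 28.7 ± 42.1 CPM against 0.253 ± 0.168 (SD, n = 3). Its values were 2.91, 6.39 and 95.3 CPM in TGFbi+RT and 0.844, 8.13 and 77.1 CPM in the triple group, in ascending order, so 1 tumor carried each mean, and all 6 lay above the 0.417 CPM of the highest Sham tumor. Of 8 tested transcription factors, 2 were higher in each, Ikzf3 and Stat4, while Tox averaged 3.01 ± 1.73 and 4.25 ± 3.64 CPM against 5.48 ± 5.36. Tbx21, a T-box factor of the same list, did not pass the filter. It had 69 counts in TGFbi+RT replicate 3, 71 in triple replicate 2 and at most 6 in any other tumor. Tbx21 was named after its values were seen.

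Ligands of NKG2D and NKG2A were present in tumors with almost no effectors. The list also held Fas, the receptor of Fasl, and relatives such as H2-D1, and it was not made for NKp46. Of its 12 tested genes, 1 was higher in TGFbi+RT and 2 in the triple group at an unadjusted p under 0.05 against Sham (9.76% and 9.96% of all genes). H2-T23, which encodes the Qa-1 ligand of NKG2A, was the gene shared by both: it was at 8.1 to 36.0 CPM in 13 tumors and at 164 and 179 CPM in the 2 high tumors. Raet1d and Raet1e, stress ligands of NKG2D, did not follow the effectors. They had 97 to 198 and 106 to 177 counts in the 3 Sham tumors, and their lowest values, 27 and 24 counts, were in TGFbi+RT replicate 3; triple replicate 2 had 55 and 71. Raet1d and Raet1e are near-identical, their counts are uncertain, and they were named after their values were seen. Of 15 tested genes of the interferon gamma response, 11 and 9 were higher, and Cxcl9, a chemokine that this cytokine induces, reached 449 and 322 CPM in the 2 high tumors against 0.164 to 7.58 CPM in the others. Of 11 genes that block granule killing in target cells, 1 and 2 were higher; Serpinb9b was at 1.61 against 0.177 CPM, and Mcl1 at 78.4 against 58.5 CPM.

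The genes whose levels followed the members most closely were Rasgrp1, Insyn2b, Ifi209, Myo1g, Gm18852, Gm4841, Fgr and Mefv. Likeness was the Spearman correlation of log2 CPM with the mean of the 10 members, a description over tumors that share libraries. For Rasgrp1, an activator of Ras in lymphocytes, it was 0.971 over 15 tumors and 0.962 over the 13 without the 2 high tumors. For the 8 genes it was 0.957 to 0.971 over 15 and 0.94 to 0.962 over 13, values that the choice of the closest genes fixes in part. Among the members themselves the lowest pair was Ifng and Klrc1, at 0.269 and -0.127, both with 5 or fewer counts in most tumors.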

How the data were processed

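RNA of 15 tumors and 1 internal reference library was sequenced after ribosomal RNA depletion (QIAGEN FastSelect) and NEBNext Ultra II library preparation, per the labels' protocols. The authors deposited a table of raw read counts per Entrez gene, with no normalization, on the build GRCm38 per the submitters' processing notes; the column names mention Subread. Other deposited values, the exon coordinates and summed exon length of each gene, come from the authors' annotation columns. How reads were aligned, whether counting used strand and which annotation release was used are not given in the sources used here. In the deposited annotation no other gene model overlapped a member. Of 27179 identifiers, 25275 were matched to a gene symbol.

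Counts were analysed in R 4.3.3 with edgeR 4.0.16: filterByExpr on the 5 groups left 16017 genes, libraries were scaled by TMM, and a quasi-likelihood model with a mean for each group was fitted on the 15 tumors (10 residual degrees of freedom). There were 8 contrasts and an F test, with Benjamini-Hochberg adjustment over all genes tested and a threshold of 0.05. CPM values of the tumors are counts divided by the library total and its TMM factor and scaled to a common size, given as mean ± SD of 3 tumors. For the reference library only its total was used. Log2 fold changes carry the standard error of the quasi-likelihood fit. Where a group had 0 counts, folds are lower bounds from 3 counts over the group. Intervals are exact at 95% and cover counting error only. Within-group pairs of tumors differed by a chi-square of 14 to 129 per gene, above counting noise, so no library was counted again as another of its group. Pairs from different groups were not compared in this way. Figures and promoter searches used Python 3.11.15. The scripts were tested on simulated data.

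Named genes were the 10 members, up to 3 genes per list with the smallest F test p, 11 further lineage, receptor and ligand genes and the 8 genes most like the members; others are marked as named after their values were seen, as are Klrc2, Klrc3, Klra4, Klra7, Klra8, Cd3d and Cd3g, the levels of which are given as counts. The members and the 22 lists were chosen with earlier results of these data known. The alternatives were DESeq2 1.42.0, limma-voom (limma 3.58.1), other size factors, no filter, fewer samples, the library code and the replicate number as terms.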

Additional observations from a re-analysis of the deposited data

Results flagged for a closer look

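The internal reference library entered no comparison. Its label names the same tissue and genotype, but it had 0 counts of Epcam and Krt5, against at least 1331 and 4064 in the tumors, and 8432 counts of Il1rl1 against at most 184. In it 8 of the 10 effector genes lay above the highest Sham tumor: Prf1 at 1 CPM, Gzmb, Nkg7 and Klrk1 at 0.777 CPM each, Klrc1 and Ncr1 at 0.333 CPM each, Gzmk at 0.222 CPM and Fasl at 0.111 CPM. These were 1 to 9 counts per gene in a library of 9003730 counts, and 3 counts were worth 0.333 CPM. The CPM of this library was scaled by its total alone, with no TMM factor. The share of all genes above the highest Sham tumor was not computed, so the 8 of 10 is no result about the members. Gzma had 0 counts there, against 7 counts of Gzmb, and Trdc, a gamma delta T cell receptor gene, had 260 counts against at most 81 in a tumor.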

How the results depend on the processing

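In edgeR, 0 members passed the adjusted threshold in any comparison under any alternative fit: other size factors, no low-count filter, the library code as a term, without the 2 resubmitted libraries, without the 2 high tumors, only the groups compared, and leaving out each tumor in turn (0 to 0 called). limma-voom also called 0, and by its test fewer members had an unadjusted p under 0.05 than by edgeR. There were 2 of 7 in TGFbi+RT against Sham (12.6% of all genes in either direction) and 1 of 7 in the triple group against Sham (13%). There was 1 of 7 in TGFbi+RT against RT (8.65%), in TGFbi+RT against TGFbi (3.69%) and for any difference among groups (7.5%). DESeq2 called 3 members in TGFbi+RT against Sham (Prf1, Nkg7 and Klrc1, adjusted p 0.00118, 0.00478 and 0.0414), 2 in the triple group against Sham (Prf1 and Nkg7, adjusted p 0.00789 and 0.00404), 1 in TGFbi+RT against RT (Prf1) and 2 for any difference among groups (Prf1 and Nkg7). It gave no p for the other 4 members, which its filter on outlying counts removed; the cause of the difference between tools was not tested. In TGFbi+RT and the triple group against Sham, all 323 fitted values of single members under alternatives were above 0, and 318 stayed on their side of the threshold, the other 5 being the DESeq2 calls in these comparisons. The sign was fixed in advance for Gzma, Gzmb, Klrc1 and Ncr1, which had 0 counts in every Sham tumor. Most of these fits also share their tumors, so the tally of signs adds no support. Fitted values in the other comparisons were not counted here. Klrc1 could not be estimated in the triple group without replicate 2, or with the library code as a term, since both groups then had 0 counts.

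Leaving out 1 tumor moved the adjusted p to between 0.127 and 0.685 in TGFbi+RT against Sham and to between 0.0988 and 1 in the triple group against Sham. Without the resubmitted libraries, 3 of 7 members had an unadjusted p under 0.05 in TGFbi+RT against Sham (7.26% of all genes in either direction), with adjusted p of 0.655 to 0.76 by edgeR. Tumors with the same replicate number did not deviate together (correlations -0.58 to 0.67, median -0.05; 6 of 15 correlated best with their own number), so the numbers do not pair them. With the replicate number as a block, 0 members were called in every comparison, with adjusted p of 0.314 to 0.338 and 0.307 to 0.391 in TGFbi+RT and the triple group against Sham. With 3 tumors a group and 1 tumor holding most of the signal, the spread and the low counts limit what can be told.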

Other observations

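Gzmc, another granzyme, had 37 and 8 of its 47 counts in TGFbi+RT replicate 3 and triple replicate 2, whereas Gzmd and Gzme were highest in a Sham tumor. Gzmd and Gzme, granzymes known from natural killer cells of the uterus and from strongly stimulated lymphocytes, had 41 and 52 counts in Sham replicate 1, a tumor with 0 counts of Gzma, Gzmb and Ncr1. In TGFbi+RT replicate 3 they had 27 and 14 counts and in triple replicate 2 they had 0 and 3 counts. The other tumors had at most 6 counts of each of the 3 genes. Gzmc, Gzmd and Gzme belong to a cluster of near-identical copies, and their counts are uncertain; the genes were named after their values were seen. Trdc, a gamma delta T cell receptor gene, had 0 counts in all 3 Sham tumors, 81 counts in TGFbi+RT replicate 3 and 65 in triple replicate 2, against at most 13 in any other tumor.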
